A study of Bos taurus with 9 samples.

Results

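Acetylation deserts were defined as fixed windows of 1 Mb, laid from position 1 of each bovine autosome other than chromosomes 5 and 14, that held 5 or fewer midpoints of H3K27ac peaks in control cells. By this rule 530 of 2321 windows on 27 autosomes were deserts, which is 22.8% of the windows and 22.5% of their bases. The remaining 1791 windows are called other windows. Because the control H3K27ac list chose the members, every H3K27ac value in the deserts is a description, and nothing is read from the H3K27ac contrast there.

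The data were chromatin immunoprecipitation sequencing (ChIP-seq) peak lists of MDBK cells, an established epithelial line from bovine kidney, labelled as Holstein in breed (spelled Hostein in the labels). Control cells were compared with cells given 5 mM butyrate for 24 h, with 4 antibodies: H3K9ac, H3K27ac, RNA polymerase II (Pol II) and H3K9me3. Each of the 8 groups was 1 library, and all 8 were called against the same input library, which is DNA taken without immunoprecipitation and was not analysed here. Nothing in the labels says how many cultures lay behind a library, and no genetic change or other treatment is given for the cells of either condition.

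The lists give the positions of peaks without height or score, so each value below is a number of peaks or of bases. They held between 25628 and 187475 peaks each. Read depth, with which the length of a list moves, is not part of the lists and was not analysed here. With 1 library a group, no test was run, and nothing measures how far a second pair of libraries would differ. The 95% intervals cover counting error only, and peaks lie in clusters, so these intervals are too narrow. Control libraries were sequenced on lane 4 and butyrate libraries on lane 5, so lane and treatment cannot be told apart. No gene annotation of the assembly of the lists (UMD3.1) was used, so regions are named by position, and the cell type could not be checked against its marker genes.

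Histone acetylation at H3K9 and H3K27 is placed by acetyltransferases at active promoters and enhancers and removed by histone deacetylases. Mammalian genomes alternate between gene-rich, acetylated stretches and gene-poor stretches that carry little acetylation, which are often replicated late and lie near the nuclear lamina. H3K9me3 is a mark of constitutive heterochromatin, bound by HP1 proteins, and is found over silenced repeats. Pol II transcribes protein-coding genes and is most concentrated near their start sites. Butyrate, a short-chain fatty acid made by microbes of the rumen, inhibits class I and II histone deacetylases.

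The deserts differed from the other windows in all 8 lists, but by very unequal amounts. In control cells they held 489 H3K9ac peaks, or 0.942 per Mb (95% Poisson interval, 0.861 to 1.03), against 35.9 per Mb in the other windows. H3K27ac, the list that chose them, held 776 peaks, or 1.5 per Mb against 46.0. Pol II was much less depleted, with 5040 peaks or 9.71 per Mb (9.45 to 9.99) in the deserts and 22.0 per Mb outside. H3K9me3 was likewise sparser in the deserts, with 2049 peaks or 3.95 per Mb (3.78 to 4.12) against 9.21. Density in the other windows was thus 38.1 times that of the deserts for H3K9ac, but 2.27 times for Pol II and 2.33 times for H3K9me3.

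After butyrate the deserts held 1290 H3K9ac peaks (2.49 per Mb; 2.35 to 2.63), 1662 H3K27ac peaks (3.20 per Mb), 667 Pol II peaks (1.29 per Mb; 1.19 to 1.39) and 11636 H3K9me3 peaks (22.4 per Mb; 22.0 to 22.8). The acetyl lists remained far sparser there than in the other windows, which held 56.9 H3K9ac and 92.9 H3K27ac peaks per Mb. The Pol II list became much more unequal, with 14.4 peaks per Mb in the other windows, 11.2 times the density of the deserts. The H3K9me3 list became more even, with 34.8 per Mb outside, 1.55 times the density of the deserts. The plot of peak density shows the deserts below the other windows in every list.

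**Figure D1:**
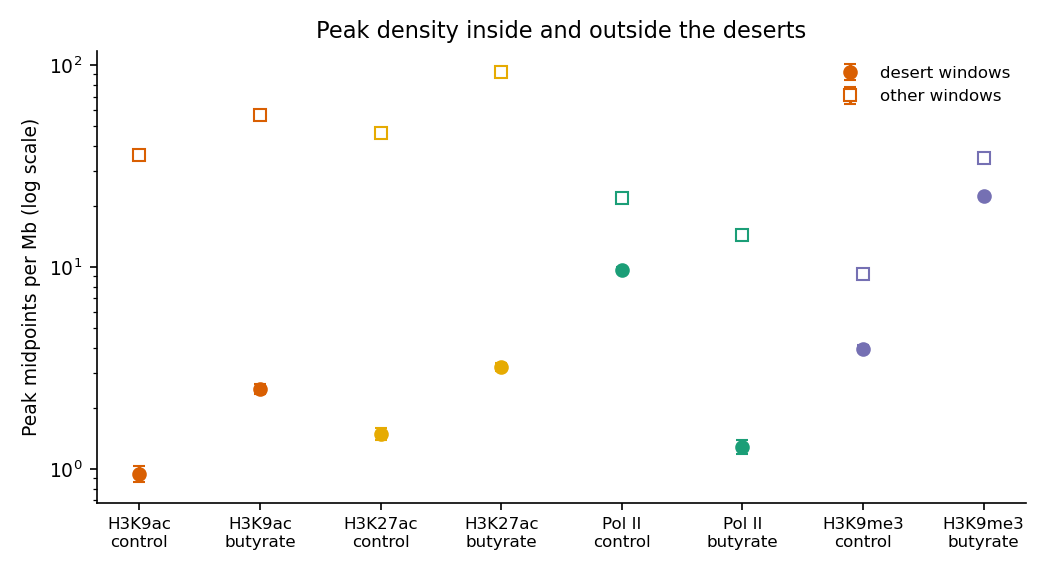
Peak midpoints per Mb (log scale) in the 530 desert windows (filled circles) and the 1791 other windows (open squares) for each antibody in control and butyrate cells; bars are 95% Poisson intervals and cover counting error only. The gap between circle and square is widest for the acetyl lists, widens for Pol II after butyrate (9.71 to 1.29 per Mb in deserts) and narrows for H3K9me3 (3.95 to 22.4 per Mb).

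In covered bases the deserts were nearly empty. Peaks of a list covered between 0.0316% (H3K9ac) and 0.226% (Pol II) of the desert bases in control cells. After butyrate the lowest share was 0.0309% (Pol II) and the highest 0.555% (H3K9me3). For comparison, butyrate H3K27ac peaks covered 0.118% of the deserts and 4.0% of the other windows.

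The leading list of the deserts also changed with condition. Of the 8354 control peaks in deserts, 60.3% were Pol II, 24.5% H3K9me3, 9.29% H3K27ac and 5.85% H3K9ac. Of the 15255 butyrate peaks there, 76.3% were H3K9me3 and 4.37% were Pol II. Pol II was the most numerous list in 472 of 530 deserts in control cells (89.1%), against 18.1% of the other windows. H3K9me3 was the most numerous in 513 of 530 after butyrate (96.8%), against 18.7% of the other windows. The rule keeps control H3K27ac sparse in deserts and leaves the windows rich in it outside. The lead of Pol II over H3K27ac in control deserts is thus largely set by the rule. Nothing is read from that lead or from its contrast with the other windows. After butyrate H3K27ac was the most numerous list in 76.3% of the other windows, where the rule puts the windows rich in control H3K27ac. The contrast in the lead of H3K9me3 thus also follows in part from the rule, and nothing is read from it. In the other windows H3K27ac made up the largest share in both conditions, with 40.6% and 46.7% of peaks. These shares depend on the length of each list, which differed between libraries.

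Pol II in the deserts was 7.56 times as numerous in control as after butyrate. The log2 ratio of butyrate to control was -2.92 in the deserts (exact 95% binomial interval, -3.04 to -2.80) and -0.61 in the other windows (-0.64 to -0.59), a difference of -2.30 (-2.42 to -2.19). Median number per desert was 9 in control, with a range from 0 to 49, and 1 after butyrate, with a range from 0 to 12. Of the 530 deserts, 515 (97.2%) held fewer Pol II midpoints after butyrate, 7 held more and 8 held the same number. Over all windows 81.4% held fewer. A fall of at least 2-fold, computed on midpoints plus 1, was found in 488 deserts (92.1%), whereas the background over all windows was 52% and the share of the other windows 40.2%. On every one of the 27 autosomes the log2 ratio was lower in the deserts than in the other windows, with desert values from -3.98 on chromosome 2 to -1.72 on chromosome 19.

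Control Pol II peaks in the deserts were short. Their median length was 205 bp (95% binomial interval, 202 to 207), 46.3% of them were at the shortest length in the list (199 bp), and 21 of 5040 reached 500 bp. In the other windows 38.3% were at the shortest length. Only 34 of the 5040 (0.675%; 95% Wilson interval, 0.483 to 0.941) were overlapped by a butyrate Pol II peak, against 4.24% of those in the other windows. Butyrate Pol II peaks covered 0.0309% of the desert bases and 0.391% of the others, and no order is read from these shares. Of the 5040, 25 (0.496%) overlapped a control H3K27ac peak, a list that the rule keeps sparse in deserts (0.0458% of bases), and 30 (0.595%) overlapped a control H3K9ac peak (0.0316% of bases). Among the 667 butyrate Pol II peaks in deserts, 117 (17.5%) overlapped a butyrate H3K27ac peak, against 61.9% in the other windows. Butyrate H3K27ac peaks covered 0.118% of the desert bases and 4.0% of the others, so no order is read here either. When the longer list of each antibody was thinned at random to the size of the shorter, the desert log2 ratio for Pol II was -2.08 and its difference from the other windows was -2.32. Among peaks of at least 500 bp the deserts held 21 in control and 7 after butyrate (log2 ratio -1.58), while the other windows went from 280 to 989.

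H3K9me3 was 5.68 times as numerous in the deserts after butyrate as in control. The log2 ratio was 2.51 in the deserts (2.44 to 2.57) and 1.92 in the other windows (1.89 to 1.94), a difference of 0.59 (0.52 to 0.66). The median desert held 3 midpoints in control, with a range from 0 to 33, and 18 after butyrate, with a range from 1 to 97. In 528 of 530 deserts (99.6%) the number was higher after butyrate, close to the 99.1% of all windows. It was lower in 1, at 27000001 to 28000000 of chromosome 17, which held 5 control and 3 butyrate midpoints, and equal in 1. At least 2-fold higher numbers, again on midpoints plus 1, were found in 498 deserts (94.0%), close to the background of 89.4% over all windows. The desert ratio was above that of the other windows on 27 of 27 autosomes, by 0.08 to 1.60 on the log2 scale.

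Some limits apply to the H3K9me3 values. With lists of equal size, the log2 ratio in the deserts was 0.64 and its difference from the other windows 0.53. Among peaks of at least 500 bp, of which the deserts held 10 in control and 152 after butyrate, the direction of the difference turned (-0.71, with an interval of -1.68 to 0.25), since the other windows went from 100 to 2492 such peaks. Most H3K9me3 positions were not shared between conditions. A butyrate H3K9me3 peak overlapped 10.6% of the control H3K9me3 peaks in deserts (9.4 to 12), against 13.2% in the other windows. A control peak overlapped 1.85% of the butyrate ones in deserts (1.62 to 2.11), against 3.50% in the other windows. Low sharing was thus not particular to the deserts. Butyrate peaks covered 0.555% of the desert bases and 0.943% of the others, and control peaks 0.0921% and 0.221%, so no order is read from these shares. Butyrate H3K9me3 peaks without a control counterpart lay a median of 81.1 kb from the nearest control H3K9me3 peak, against 32.7 kb in the other windows. Control H3K9me3 peaks were sparser in deserts (3.95 against 9.21 per Mb), which by itself lengthens such distances, so nothing is read from this contrast. Of the butyrate H3K9me3 peaks in deserts, 267 of 11636 (2.29%) overlapped a control Pol II peak, against 4.91% in the other windows. Control Pol II peaks covered 0.226% of the desert bases and 0.535% of the others, and no order is read from these shares.

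H3K9ac was 2.64 times as numerous in the deserts after butyrate as in control, while the other windows went from 64180 to 101603 peaks. The log2 ratios were 1.40 (1.25 to 1.55) and 0.66 (0.65 to 0.68), a difference of 0.74 (0.59 to 0.89). The ratio comes from few peaks in few windows. The median desert held 0 H3K9ac midpoints in both conditions, with a maximum of 9 in control and 22 after butyrate, and 346 of 530 deserts held none in control and 272 none after butyrate. In 220 deserts (41.5%) the number was higher after butyrate, in 32 lower and in 278 equal. Over all windows it was higher in 79.3%. At least 2-fold higher numbers occurred in 166 deserts (31.3%), and the background over all windows was 31.5%. The added 1 weighs more in deserts, where the median is 0, than in the other windows, whose control median is 28, so the shares are not compared. The difference between deserts and other windows was above 0 on 25 of 27 autosomes and below 0 on chromosomes 7 and 13. With lists of equal size the desert log2 ratio was 0.73. Peaks of at least 500 bp numbered 68 and 84 in deserts, a log2 ratio of 0.30 whose interval, from -0.17 to 0.79, included 0.

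For H3K27ac the log2 ratio was 1.10 in the deserts (0.97 to 1.22) and 1.01 in the other windows (1.00 to 1.03), a difference of 0.08 (-0.04 to 0.21). The number was higher after butyrate in 187 deserts (35.3%, against 79.4% of all windows), lower in 118 and equal in 225. It was at least 2-fold higher in 122 deserts (23.0%) beside a background of 43.3%. These values share their control list with the rule and are given for completeness. At equal list size the desert log2 ratio was 0.17.

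Within the deserts, the windows with no control H3K27ac midpoint at all differed from those with a few. There were 218 of the former and 312 of the latter. Control Pol II numbered 1741 in the former and 146 after butyrate, a log2 ratio of -3.58 (-3.83 to -3.33), whereas the windows with 1 to 5 midpoints had -2.66 (-2.80 to -2.53). The Pol II ratio then passed through -1.47 in windows with 6 to 20 midpoints, -0.86 with 21 to 50 and -0.36 with 51 to 100, to 0.08 (0.02 to 0.14) in the 125 windows with over 100. H3K9me3 went the other way, from 2.63 (2.50 to 2.75) and 2.45 (2.37 to 2.53) in the 2 desert classes. In the windows with 6 to 20 it was 2.41 (2.35 to 2.47), an interval that overlapped that of the 1 to 5 class. The H3K9me3 ratio was then 2.00 with 21 to 50, 1.68 with 51 to 100 and 1.33 (1.26 to 1.41) in the windows with over 100. The H3K9ac ratio was 2.63 in the windows with no H3K27ac midpoint, but from 15 control and 93 butyrate peaks, with an interval of 1.84 to 3.53. It was 1.34 (1.18 to 1.49) in those with 1 to 5 and 1.13 (1.08 to 1.18) in those with 6 to 20. Above that the H3K9ac ratio was 0.87 with 21 to 50, 0.58 with 51 to 100 and 0.35 with over 100.

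**Figure D2:**
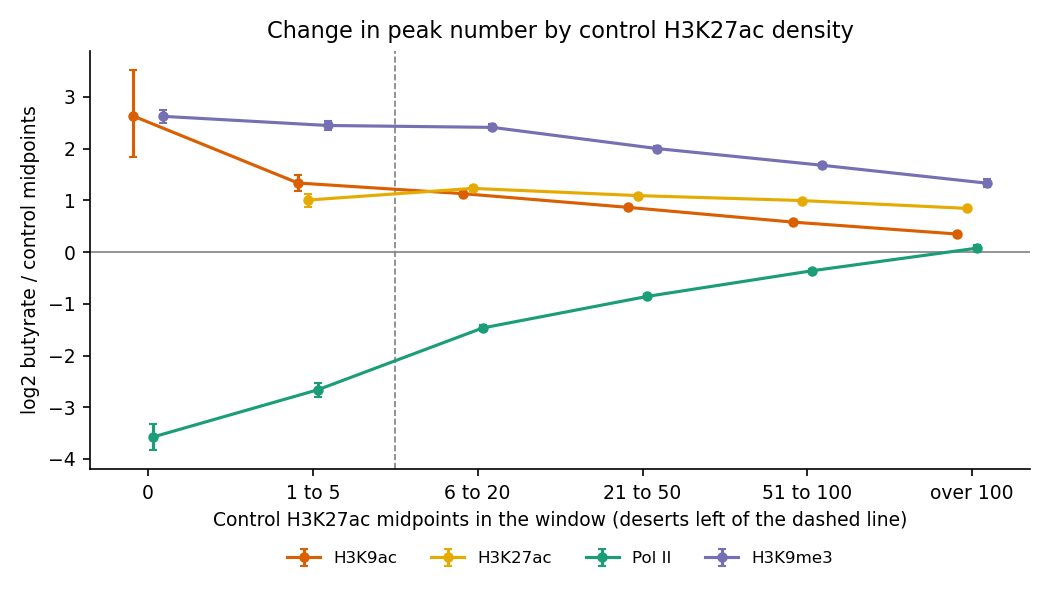
Log2 ratio of butyrate to control peak midpoints for each antibody, summed over windows grouped by their number of control H3K27ac midpoints; bars are exact 95% binomial intervals, the dashed line is the edge of the deserts, and the H3K27ac ratio is not drawn where its control number is 0 by the rule. Pol II runs from -3.58 in the windows without control H3K27ac to 0.08 in those with over 100 midpoints, and H3K9me3 from 2.63 to 1.33.

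Around the threshold the values changed gradually. The 40 windows just inside, with 5 control H3K27ac midpoints, held means of 3.75 H3K9ac, 11.7 Pol II and 4.63 H3K9me3 midpoints in control and 7.9, 3.0 and 25.6 after butyrate. The 43 windows just outside, with 6, held 4.47, 13.4 and 5.40 in control and 11.0, 3.98 and 31.3 after butyrate. Their mean butyrate H3K27ac numbers were 11.3 and 16.9.

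Most deserts of control cells still met the same rule after butyrate. Of the 530 windows, 427 (80.6%) held 5 or fewer butyrate H3K27ac midpoints, and these made up 96.8% of the 441 windows that met the rule after butyrate. The other 103 deserts (19.4%; 95% Wilson interval, 16.3 to 23.0) exceeded 5. The background over all windows was 81%, but the rule puts every window with 6 or more control midpoints outside the deserts, so nothing is read from that contrast. Only 14 windows met the rule after butyrate alone. By control number, those that exceeded 5 were 3 of the 218 windows with 0 control midpoints (1.38%), 5 of 114 with 1 (4.39%) and 14 of 60 with 2 (23.3%). They were 18 of 50 with 3 (36.0%), 28 of 48 with 4 (58.3%) and 35 of 40 with 5 (87.5%). Windows that start nearer the limit need fewer added midpoints to pass it, so nothing is read from this order.

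H3K9ac in the deserts was concentrated in few windows in both conditions, and H3K27ac was after butyrate. The 53 deserts with the most control H3K9ac midpoints held 53.2% of those in deserts. For control H3K27ac, which the rule caps at 5 per window, the share was 32.5%. The 53 deserts with the most butyrate H3K27ac midpoints held 55.4% of all such midpoints in deserts, and the corresponding share for butyrate H3K9ac was 50.7%. Medians of 0 or 1 midpoints per desert by themselves raise such shares, and none was computed for the other windows. The variance of the number per full-length desert was 10.7 times its mean for butyrate H3K27ac and 6.59 times for butyrate H3K9ac. For butyrate H3K9me3 it was 8.99 times and for butyrate Pol II 2.16 times. In the other windows all 4 values were higher, at 48.4, 26.5, 10.5 and 7.71 in the same order. Butyrate H3K27ac peaks in deserts lay a median of 1.12 kb from the nearest peak of the same list, with 83.2% within 10 kb, against 0.877 kb and 96.1% in the other windows. For control Pol II the median was 32.4 kb in deserts and 11.7 kb in the other windows.

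The largest number of butyrate H3K27ac midpoints in a desert was found at 86000001 to 87000000 of chromosome 1, which held 4 in control and 40 after butyrate. Its H3K9ac number went from 2 to 20, Pol II from 10 to 2 and H3K9me3 from 2 to 11. All 40 lay within 182 kb, 20 of them within 33.1 kb, and the neighbouring windows were themselves deserts, with 2 and 5 control midpoints. Next was 46000001 to 47000000 of chromosome 26, with 3 H3K27ac midpoints in control and 38 after butyrate. There Pol II went from 4 to 6 and H3K9me3 from 4 to 38, and the flanking windows were not deserts (24 and 35 control H3K27ac midpoints). The next was 36000001 to 37000000 of chromosome 17, with 3 and 34, where the 34 spanned 746 kb and 17 of them lay within 48.9 kb. The largest H3K9ac number after butyrate was found at 111000001 to 112000000 of chromosome 8, with 3 in control and 22 after butyrate, beside 4 and 20 for H3K27ac. The largest control H3K9ac number, 9, was found at 68000001 to 69000000 of chromosome 16, which held 21 H3K9ac and 28 H3K27ac midpoints after butyrate.

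In the opposite direction, 157 deserts (29.6%) held no midpoint in any of the 4 acetyl lists. These windows are picked by their acetyl values, and only Pol II and H3K9me3 are described in them. They held 1160 control Pol II peaks (7.62 per Mb) and 84 after butyrate (0.552 per Mb). Their H3K9me3 number was 428 in control (2.81 per Mb) and 2644 after butyrate (17.4 per Mb). In the 151 of full length, the number of butyrate H3K9me3 midpoints ranged from 5 to 97 with a median of 14, and control Pol II from 2 to 25 with a median of 7. The other 373 deserts were denser in both, with 10.6 control Pol II and 24.5 butyrate H3K9me3 peaks per Mb. No desert was empty in all 8 lists, and the lowest sum over the 8 lists in a full-length desert was 11 midpoints. Of the 206 deserts without a control acetyl midpoint, 49 (23.8%) held one after butyrate. Over all windows, 70 with a control acetyl midpoint held none after butyrate. Only 1 of the other windows held no butyrate H3K27ac midpoint, so all but at most 1 of these 70 were deserts.

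The desert with the most H3K9me3 midpoints after butyrate belonged to this silent class. It lay at 60000001 to 61000000 of chromosome 19 and held 2 H3K9me3 midpoints in control and 97 after butyrate, which covered 25.6 kb, and 6 and 2 Pol II midpoints. Both the largest control Pol II number (49) and the largest control H3K9me3 number (33) occurred in a single window, at 17000001 to 18000000 of chromosome 3. That window held 1 H3K9ac and 4 H3K27ac midpoints in control and none of either after butyrate, when it held 7 Pol II and 61 H3K9me3 midpoints. The largest Pol II number after butyrate, 12, was found at 72000001 to 73000000 of chromosome 13, against 13 in control, in a window that held 5 control and 12 butyrate H3K27ac midpoints.

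Some of the acetylation peaks in the deserts were met by a peak of the same mark after butyrate. For H3K27ac this describes the list that chose the windows. Of the 776 control H3K27ac peaks in deserts, 41.0% (37.6 to 44.5) were overlapped by a butyrate H3K27ac peak, against 66.6% (66.2 to 66.9) of those in the other windows. For H3K9ac the shares were 42.5% (38.2 to 47.0) and 48.7% (48.3 to 49.1). The bases that the butyrate peaks cover also differ, at 0.118% of the deserts and 4.0% of the other windows for H3K27ac and 0.0734% and 1.81% for H3K9ac, so no order is read from these shares. In deserts 233 of 489 control H3K9ac peaks (47.6%; 43.3 to 52.1) overlapped a control H3K27ac peak, which covered 0.0458% of the desert bases. The share in the other windows was 60.7%, with 1.85% of bases covered. After butyrate 505 of 1290 (39.1%; 36.5 to 41.8) overlapped a butyrate H3K27ac peak, against 62.1% in the other windows. No order is read from these shares either, since the covered bases differ. Of the 1349 butyrate H3K27ac peaks in deserts that met no control H3K27ac peak, 20.3% lay over 100 kb from the nearest one, in windows chosen for holding few of them.

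Peaks in deserts were also shorter than elsewhere, in every list. Median length was 269 bp against 300 bp for control H3K9ac, 239 against 289 bp for control H3K27ac, 254 against 270 bp for butyrate H3K9ac and 289 against 326 bp for butyrate H3K27ac. For H3K9me3 it was 207 against 215 bp in control and 219 against 232 bp after butyrate. The share of control H3K27ac peaks at the shortest length was 29.3% in deserts and 14.8% outside. The longest control peaks in deserts were an H3K27ac peak of 1943 bp at 57235627 to 57237569 of chromosome 6 and, within it, an H3K9ac peak of 1426 bp at 57236130 to 57237555. The longest control Pol II peak was 1002 bp (chromosome 17, 52465054 to 52466055), and the longest control H3K9me3 peak was 1023 bp (chromosome 3, 17537053 to 17538075), in the window with the most control Pol II midpoints. After butyrate the longest H3K9ac peak was 1279 bp (chromosome 24, 36031418 to 36032696) and the longest H3K27ac peak 1829 bp (chromosome 7, 106189944 to 106191772). The longest Pol II peak was 687 bp (chromosome 13, 72804383 to 72805069), and the longest H3K9me3 peak 1213 bp (chromosome 7, 14739944 to 14741156).

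The deserts lay in 290 runs of adjacent windows. Of these, 166 were single windows, and the 124 runs of 2 or more held 364 windows, or 68.7% of the deserts. There were 67 runs of 2 windows, 30 of 3, 12 of 4, 9 of 5, 1 of 6, 2 of 7, 2 of 8 and 1 of 11. The 15 runs of 5 or more held 92 windows and lay on 12 autosomes. Deserts were a larger share of some autosomes than of others, from 6.98% of the windows of chromosome 25 to 37.0% of those of chromosome 27, with 35.5% on chromosome 17, 34.6% on chromosome 29 and 33.7% on chromosome 12. When each autosome was divided into 10 equal parts, the first and second part from position 1 had the highest shares, 35.2% and 31.0%, and the others lay between 15.3% and 22.9%. The last window was a desert on 15 of 27 autosomes, where 15 deserts were shorter than 1 Mb, the shortest 15608 bp.

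**Figure D3:**
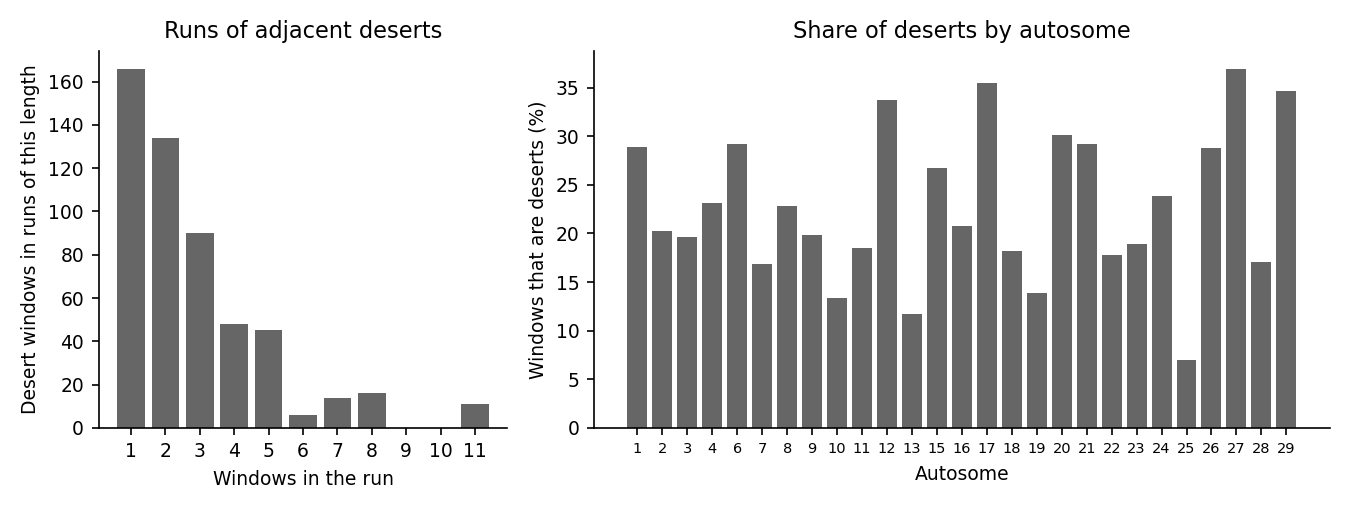
Left, number of desert windows that lie in runs of each length, in windows of 1 Mb; right, percent of the windows of each autosome that are deserts. Single windows number 166, the longest run has 11, and the share per autosome ranges from 6.98% (chromosome 25) to 37.0% (chromosome 27).

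The longest run covered 11 windows, at 23000001 to 34000000 of chromosome 1. H3K9ac peaks numbered 6 in control and 13 after butyrate, H3K27ac peaks 11 and 15, Pol II peaks 86 and 7, and H3K9me3 peaks 29 and 169. No window in it exceeded 6 butyrate H3K27ac midpoints, and 5 of the 11 had no midpoint in any acetyl list. Control Pol II was present in all 11 windows, with 3 to 13 midpoints, and 6 of the 11 had none after butyrate. H3K9me3 numbered 0 to 5 per window in control and 7 to 26 after butyrate. Higher H3K9me3 numbers after butyrate were not particular to this run, as they were found in 99.1% of all windows. At its lower edge the window 21000001 to 22000000 held 131 control and 193 butyrate H3K27ac midpoints, and the window between it and the run held 6 and 13. At the upper edge, 34000001 to 35000000 held 38 and 63.

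**Figure D4:**
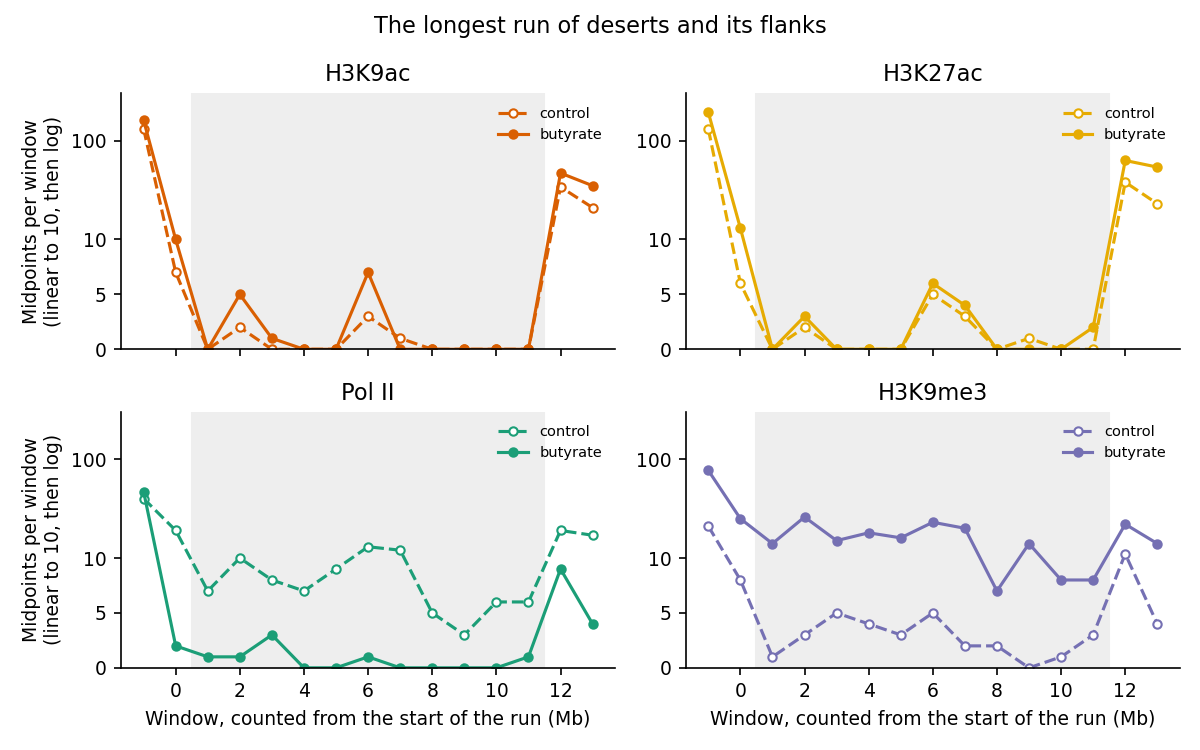
Peak midpoints per 1 Mb window across the longest run of deserts (grey, windows 1 to 11) and 2 windows on each side, for each antibody in control (open circles, dashed) and butyrate cells (filled circles, solid); the vertical axis is linear to 10 and logarithmic above. Inside the run Pol II lies at 3 to 13 in control and 0 to 3 after butyrate, and H3K9me3 at 0 to 5 and 7 to 26.

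Runs of 8 windows were found at 21000001 to 29000000 of chromosome 17 and at 3000001 to 11000000 of chromosome 12. The run on chromosome 17 held 66 Pol II and 27 H3K9me3 peaks in control and 5 and 99 after butyrate. The run on chromosome 12 held 74 and 22 in control and 4 and 144 after butyrate. Acetyl peaks were few in both, with 9 control H3K27ac peaks and 14 after butyrate in each, and with 4 and 3 windows that had no acetyl midpoint. Both runs ended sharply. The windows next to the run on chromosome 12 held 133 and 75 control H3K27ac midpoints, and the 2 next to the run on chromosome 17 held 36 and 96 control H3K9ac midpoints.

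The remaining runs of the 5 longest had 7 windows each. At 57000001 to 64000000 of chromosome 12, 6 of 7 windows had no midpoint in any acetyl list, and the run held 59 Pol II and 11 H3K9me3 peaks in control against 2 and 87 after butyrate. The remaining window, 60000001 to 61000000, carried all its acetylation, with 1 H3K9ac and 3 H3K27ac midpoints in control and 3 and 6 after butyrate, and also its largest control Pol II number, 17. At 11000001 to 18000000 of chromosome 1 the run held 61 Pol II peaks in control and 1 after butyrate, and 19 H3K9me3 peaks in control and 97 after butyrate. Its butyrate H3K27ac peaks, 15 in all, were mostly in the window 14000001 to 15000000, which held 11 of them.

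Density in every list was lower in longer runs. Longer runs also held fewer peaks of the list that chose them, with 2.10, 1.33 and 0.935 control H3K27ac peaks per Mb in single deserts, runs of 2 to 4 and runs of 5 or more. Control Pol II numbered 11.4 per Mb in single deserts, 9.26 in runs of 2 to 4 and 8.13 in runs of 5 or more, and butyrate Pol II 1.89, 1.12 and 0.728. Butyrate H3K9me3 numbered 28.3, 21 and 16.7 per Mb in the same classes, and control H3K9me3 5.12, 3.65 and 2.82. H3K9ac numbered 1.47, 0.784 and 0.50 per Mb in control and 3.92, 2.16 and 0.989 after butyrate. Butyrate H3K27ac numbered 5.20, 2.66 and 1.36. Density also fell off from the border of a run to the second window. The 404 deserts at the border of a run held 10.4 control Pol II and 24.0 butyrate H3K9me3 peaks per Mb, the 87 in second place 7.39 and 17.6, and the 39 farther in 7.84 and 17.2.

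The log2 ratio between conditions had overlapping intervals at all 3 depths in the run, for each antibody. For Pol II it was -2.88 (-3.02 to -2.76) at the border, -2.97 (-3.33 to -2.64) in second place and -3.31 (-3.91 to -2.77) farther in. For H3K9me3 it was 2.47 (2.40 to 2.55), 2.69 (2.49 to 2.90) and 2.60 (2.30 to 2.90). For H3K9ac it was 1.38 (1.22 to 1.54), 1.77 (1.21 to 2.35) and 1.03 (0.25 to 1.86), the last from 21 control and 43 butyrate peaks. The H3K27ac values, described only, were 1.09, 1.31 and 0.89. Across the border, the 509 other windows next to a desert had a Pol II ratio of -0.75 (-0.80 to -0.71) and an H3K9me3 ratio of 1.98 (1.93 to 2.03). Those next to a desert still held 37.1 control H3K27ac and 28.8 control H3K9ac peaks per Mb, against 50.5 and 39.1 in windows 5 or more from any desert.

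**Figure D5:**
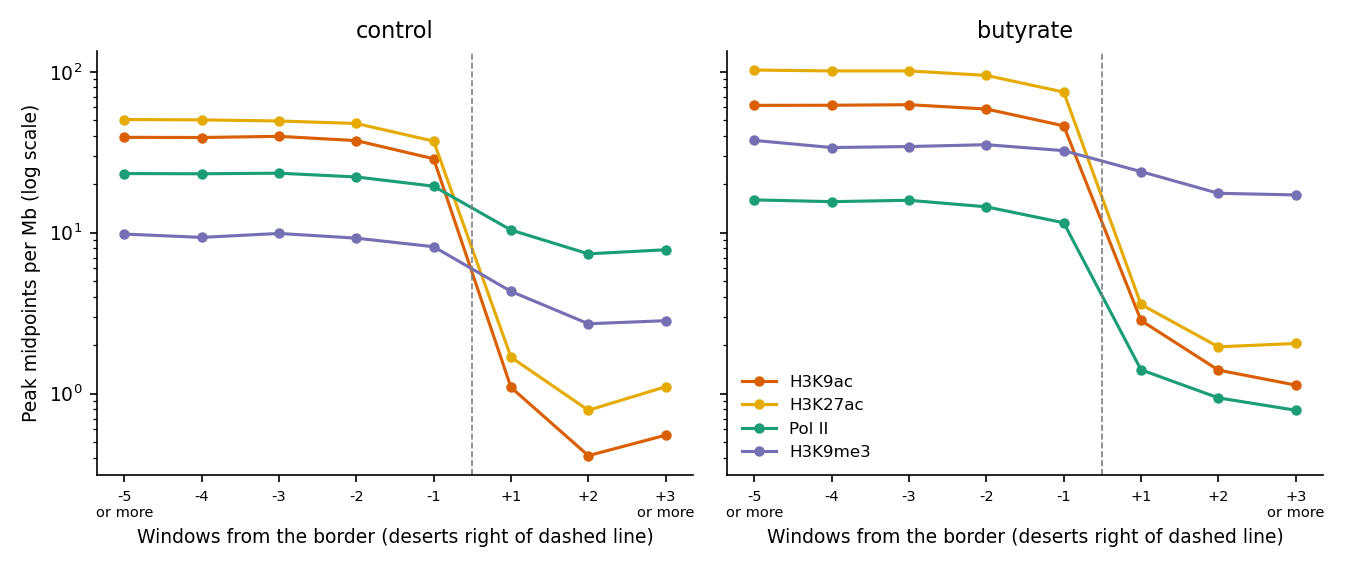
Peak midpoints per Mb (log scale) by distance from the border between deserts and other windows, in windows of 1 Mb, for control (left) and butyrate (right); negative distances are other windows and positive distances deserts. The control H3K27ac list sets the border, so its step there is fixed by the rule and H3K27ac is described only. Both acetyl lists step down steeply at the border in both conditions. Pol II steps further after butyrate (11.5 to 1.41 per Mb) than in control (19.5 to 10.4), and H3K9me3 steps least after butyrate (32.4 to 24.0).

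Counted to the base pair rather than by window, 215 stretches of at least 1 Mb held no peak of any acetyl list, and they summed to 356 Mb. The longest, 4.09 Mb, lay at 31705445 to 35796895 of chromosome 8 and held 30 Pol II and 17 H3K9me3 peaks in control and 0 and 51 after butyrate. The next, 3.90 Mb at 21278502 to 25177801 of chromosome 17, lay inside the run of 8 windows there and held 30 and 17 in control and 2 and 56 after butyrate. Stretches of at least 1 Mb without H3K27ac peaks numbered 273 in control (475 Mb) and 316 after butyrate (558 Mb), although the butyrate list was the longer. The longest stretch without a butyrate H3K27ac peak was 5.21 Mb, at 14346711 to 19555088 of chromosome 24, where the control lists held 9 H3K27ac, 4 H3K9ac and 79 Pol II peaks, and the butyrate lists 2 H3K9ac, 13 Pol II and 141 H3K9me3 peaks.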

How the data were processed

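ChIP-seq peak lists of 8 libraries (4 antibodies, control and butyrate MDBK cells) were used. According to the study's methods, the authors dropped reads that failed the sequencer's filter, aligned the rest with BWA, kept uniquely placed reads and called peaks in each library with MACS2 against 1 input. The submitters' processing notes name the assembly UMD3.1 and, with no role given, Trim Galore 0.4.1. The deposited lists give chromosome, start and end in base pairs and no other measure. Starts were read as counted from 0. If they are counted from 1, printed starts are 1 too high and lengths 1 bp too low.

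Each peak was assigned to a 1 Mb window by its midpoint. The end of a chromosome was the last peak end in any list. Log2 ratios have exact 95% binomial intervals, densities Poisson intervals, shares Wilson intervals, and differences of log2 ratios normal intervals from the counts. Overlap means at least 1 shared bp. A 2-fold call used midpoints plus 1. The members, lists and alternatives were chosen with earlier results of these data known. Regions were named by rule: the 5 longest runs, the desert with the most midpoints of each list, the 3 with the most butyrate H3K27ac midpoints and the longest peak of each list. Ties between runs went to the run with more bases free of control H3K27ac peaks. The long peak-free stretches and the chromosome 17 window with fewer H3K9me3 midpoints after butyrate were named after their values were seen. Counting was tested on simulated data. Python 3.11.15, numpy 2.4.6, pandas 2.3.3, scipy 1.17.1 and matplotlib 3.10.9 were used.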

Additional observations from a re-analysis of the deposited data

How the results depend on the processing

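Under 8 alternatives, 42 of 79 recomputed values stayed inside the counting interval of the reported value, 36 moved outside it and 1 changed direction. In deserts of 2 or fewer control H3K27ac midpoints (392 windows), the log2 ratio was 1.79 for H3K9ac and -3.26 for Pol II, their differences from other windows were 1.12 and -2.60, 5.61% of deserts exceeded 5 butyrate H3K27ac midpoints, and 22.6% of control H3K27ac peaks were retained. With 10 or fewer (703 windows), the Pol II ratio was -2.45, its difference -1.89, and the shares 37.3% and 48.8%. With windows shifted by 500000 bp (496 deserts), 14.7% exceeded 5. With windows chosen by control H3K9ac (630), the ratios were 1.63 for H3K9ac and -2.51 for Pol II, the differences 0.97 and -1.91, and 30.3% exceeded 5. There the control H3K9ac list chose the windows, so nothing is read from those H3K9ac values. In covered bases the ratios were 1.22 for H3K9ac, 1.37 for H3K27ac and 2.59 for H3K9me3, the differences 0.25 for H3K27ac and 0.50 for H3K9me3, and 34.1% of control H3K27ac peaks were retained at 50% overlap. That alternative gives no value for the share above 5 midpoints.

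Peaks of at least 500 bp gave ratios of -1.58 for Pol II (21 and 7 peaks), 3.93 for H3K9me3, 0.30 for H3K9ac and 1.90 for H3K27ac, and differences of -3.41 for Pol II, 0.57 for H3K27ac and, reversed, -0.71 for H3K9me3. Under it 0.943% exceeded 5 and 66.7% were retained. Lists of equal size gave 0.73 for H3K9ac and 0.17 for H3K27ac, -2.08 for Pol II with 0.64 for H3K9me3, with 10% above 5 and 21.1% retained, because peaks were removed. The causes of the other changes were not tested. Full-length windows moved none of the 10 values outside its interval. No paired analysis was possible because no group held more than a single library and no result came from a test. Read depth and peak height, which limit how many weak peaks a list holds, were not used.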

Other observations

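The windows of chromosomes 5, 14 and X lie outside the definition of the deserts, but the same limit of 5 control H3K27ac midpoints was met by 12 of 122 windows on chromosome 5, 9 of 85 on chromosome 14 and 67 of 149 on X. The 12 windows of chromosome 5 held means of 39.6 Pol II and 19.1 H3K9me3 midpoints in control and 5.42 and 51.4 after butyrate. The 9 windows of chromosome 14 held 48.9 and 25.6 in control and 6.0 and 76.7 after butyrate. On X the 67 windows held 1.84 and 1.39 in control and 0.806 and 8.00 after butyrate. Mean butyrate H3K27ac numbers in these windows were 2.25 on chromosome 5, 0.222 on chromosome 14 and 5.03 on X, beside control means of 3.0, 2.78 and 1.64.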
